A study of Mus musculus with 6 samples.

Results

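Collagens are the main structural proteins of the vessel wall, and their genes were taken from the array design as every non-control probe whose gene name is Col, a number, the letter a and a number. This gave 43 collagen genes read by 68 probes, out of 34743 genes and 55681 probes. They were grouped as fibrillar, basement membrane, cartilage and other collagens. Of these, 37 genes and 48 probes had signal well above background on 3 or more of the 6 arrays, of either genotype, and were tested. The other 6 (Col4a3, Col9a3, Col10a1, Col13a1, Col19a1 and Col28a1) reached that signal on no array and were left out of the test.

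The RNA came from aortic arteries of C57BL/6 mouse fetuses at embryonic day E18.5, of genotype Nod1 -/- (n = 3) or Nod1 +/- (n = 3). All had a Nod1 -/- mother, mated with a Nod1 +/- male, and every mother had received 500 µg of FK565 under the skin 6 h before the vessels were taken. FK565 is a synthetic ligand of NOD1, a cytosolic sensor of bacterial peptidoglycan fragments. The fetuses of both genotypes were therefore exposed, and no arrays came from dams without ligand. The comparison asks which transcripts of the fetal vessel differ with a working Nod1 allele in the fetus. Each sample was read on a 1-colour Cy3 Agilent array, and whether an array holds 1 fetus or several is not stated, so that the p-values reflect only how much these samples vary, which may be technical. In whole vessels, fewer cells of a type and less RNA per cell cannot be told apart.

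A collagen molecule is built from 3 chains that wind around each other, with glycine recurring along the helix after every pair of other residues. Fibrillar collagens form the load-bearing fibres of the wall, type IV collagen forms the mesh of basement membranes under endothelium and around smooth muscle, and the remaining types decorate fibrils, form microfibrils or span membranes. In arteries, types I and III carry tensile load.

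The sequences shown first are those of probes behind collagens that differed, because each gene's value is the value of its probe. Each begins below at its 5′ end, and the first 30 of 60 bases are given unless the probe lies in the helix-coding part. Positions are those of mm9 in the scanner files.
Col22a1, used, chr15:71699345-71699404, minus strand: ctcctggaaaaccagtatgtcacctgccgg
Col22a1, second probe, chr15:71628906-71628965, minus strand: tcaagttcctcatgctggtttcaattgtgt
Col9a1, chr1:24259125-24259184, plus strand: attgctaggatactaaggaacagaccccac
Col14a1, used, chr15:55352264-55352323, plus strand: ctcgacttacagggattgctttgtaaatgc
Col8a2, used, chr4:125991441-125991500, plus strand: acttaccacatatcacatatcaggttcagg

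Regularly spaced glycine codons mark the helix in DNA, and the next probes are shown because they carry them. Capitals mark the longest run of glycine codons (GGN) 9 bases apart in each probe. Such codons before that run in the Col14a1 probe, out of step with it, are in lower case.
Col15a1, used, chr4:47283786-47283845, plus strand: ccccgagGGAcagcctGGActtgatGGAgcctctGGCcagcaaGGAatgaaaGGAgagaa
Col14a1, second probe, chr15:55347733-55347792, plus strand: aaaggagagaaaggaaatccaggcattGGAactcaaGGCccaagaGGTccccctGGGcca
A run of at least 4 such codons was found in 4 of the 68 collagen probes (5.88%) and in 0.0845% of 55613 other probes. The Col15a1 probe holds 6 in a row, so the value of that gene was read in its repeated helix.

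Of the 37 collagen genes tested, 6 changed between genotypes (16.2%), where 18.7% of all 21478 genes tested changed. Of the 6, 3 were higher in Nod1 -/- vessels, where 11.0% of all genes were higher, and 3 were lower, where 7.66% of all genes were lower. Col22a1, Col6a4 and Col15a1 were the lower ones, and Col9a1, Col14a1 and Col8a2 the higher ones. The median difference of the collagens was 0.01 on the log2 scale, beside 0.10 over all genes, and median scaling moved these to -0.10 and -0.01. The genotypes did not overlap for 16 collagens (43.2%), 9 lower and 7 higher in Nod1 -/-, where 42.4% of all genes did not overlap. The shares of collagens were thus near those of all genes. Differences here are Nod1 -/- minus Nod1 +/- in log2 signal, adjusted p-values are from limma with Benjamini-Hochberg adjustment over all genes, and changed means an adjusted p under 0.05. A gene's level is its log2 signal minus the 75th percentile of its array, so 0 is that percentile, and levels of different probes are not comparable.

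**Figure D1:**
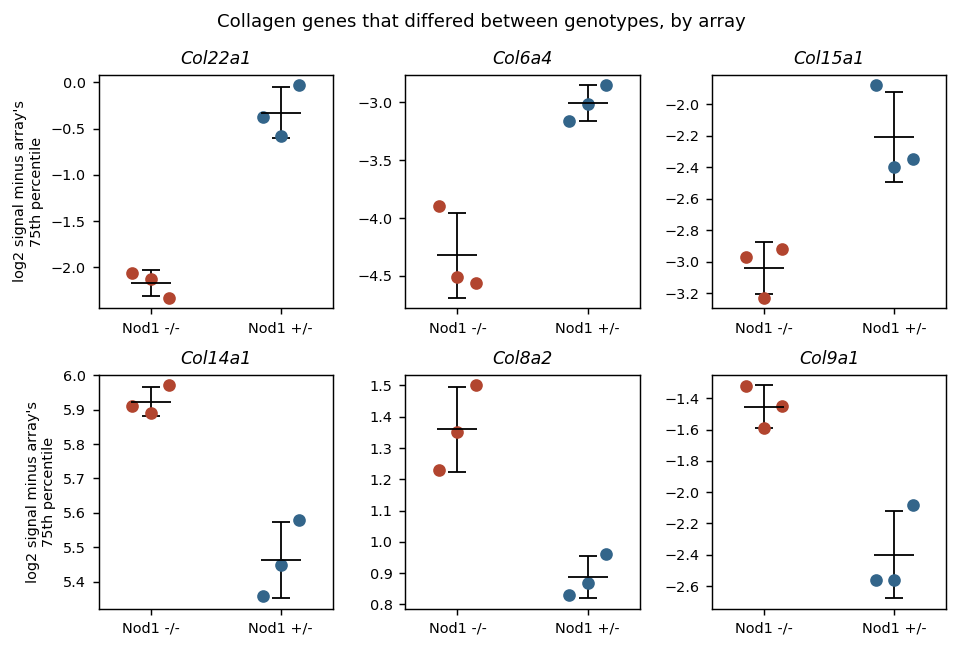
Levels of the 6 changed collagens on each array, as log2 signal minus the array's 75th percentile. Points are arrays, replicates 1 to 3 running left to right within a genotype, and bars show the mean and SD (n = 3 per genotype). In each panel the 3 Nod1 -/- arrays lie apart from the 3 Nod1 +/- arrays.

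Col22a1, a fibril-associated collagen known from junctions between tissues such as muscle and tendon, showed the largest difference among the 37 collagens. Its level was -2.06, -2.13 and -2.33 on the Nod1 -/- arrays and -0.37, -0.58 and -0.03 on the Nod1 +/- arrays. The genotypes were far apart compared with the spread within either. The difference was -1.85 (SE 0.17, 95% confidence interval -2.25 to -1.44), a 3.6-fold lower signal in Nod1 -/- (adjusted p = 0.00207). The second probe, shown above and lying elsewhere on the same chromosome, fell by 3.31 (SE 0.31; limma adjusted p = 0.00276 over all probes). On that probe the levels were -2.99, -3.75 and -3.89 in Nod1 -/- and 0.15, -0.68 and -0.19 in Nod1 +/-. Both probes were well above background on all arrays, and the gene passed under all 20 alternatives, with differences between -2.58 and -1.36. Skeletal muscle markers averaged 1.03, 1.39 and 1.55 in Nod1 -/- and 5.18, 1.44 and 1.12 in Nod1 +/-, highest on Nod1 +/- replicate 1. On that array the used probe of Col22a1 lay between the other Nod1 +/- arrays and the second probe was the highest of all. Without that array the difference on the used probe was -1.87 (limma adjusted p = 0.0108). The part of these transcripts in the Col22a1 result was not tested.

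Col6a4 encodes a chain of type VI collagen, which forms beaded microfibrils. Its level was -3.90, -4.51 and -4.56 in Nod1 -/- and -3.16, -3.01 and -2.85 in Nod1 +/- vessels, with no overlap. Its signal exceeded background clearly on 2 Nod1 -/- arrays and on all 3 Nod1 +/- arrays. The difference was -1.32 (SE 0.20; adjusted p = 0.0103), and with normexp background correction it was -0.45 (adjusted p = 0.0259). The gene passed under all 19 alternatives in which it was tested. Its other probe was not well above background on any array. The better-known chains of the same collagen did not pass. Col6a1 lay at 7.23, 7.18 and 7.24 in Nod1 -/- and 7.16, 7.22 and 7.29 in Nod1 +/-, a difference of -0.01 (95% interval -0.22 to 0.21). Col6a3 lay at 6.25, 6.51 and 6.49 in Nod1 -/- and 6.56, 6.53 and 6.67 in Nod1 +/-, a difference of -0.17 (-0.44 to 0.10; adjusted p = 0.318). The intervals of both include 0. Col6a2 differed by -0.01, Col6a5 by -0.01 and Col6a6 by 0.39, and the 95% interval of Col6a5 ran from -1.58 to 1.57.

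Col15a1 encodes the core of a collagen of the basement membrane zone of vessels and muscle. It was read at -2.97, -3.23 and -2.92 in Nod1 -/- and at -1.88, -2.40 and -2.35 in Nod1 +/- vessels. All 3 Nod1 -/- arrays were below all 3 Nod1 +/- arrays. The difference was -0.83 (SE 0.17, 95% interval -1.25 to -0.40; adjusted p = 0.0257), a 1.78-fold lower signal in Nod1 -/-. Its other 2 probes overlap at the far end of the gene (chr4:47325261-47325332). Each was well above background on 1 array, of genotype Nod1 -/-, so they were not tested. The first lay at -3.84, -4.41 and -4.29 in Nod1 -/- and -4.48, -4.45 and -4.16 in Nod1 +/-. The second lay at -4.13, -5.17 and -6.18 in Nod1 -/- and -5.83, -5.89 and -5.12 in Nod1 +/-. On both the genotypes overlapped, so neither repeated the separation of the used probe. The call was lost without Nod1 -/- replicate 1 (adjusted p = 0.0694) or 2 (0.0919), and with Xist signal as a covariate (0.0634). Xist, the RNA that coats an inactive X chromosome, was high on 1 of 3 Nod1 -/- arrays (1.09, against -6.90 and -6.24) and on 2 of 3 Nod1 +/- arrays (1.35 and 1.49, against -6.45), so the genotypes were not balanced in it. With normexp background correction the difference of Col15a1 was -0.44.

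Among the 7 basement membrane collagens tested, Col15a1 was the only gene to pass (14.3%, beside 18.7% of all genes). The median difference was -0.43. Col4a1 and Col4a2, the chains that make up the type IV collagen of most vessels, are transcribed in opposite directions from nearly the same place. Col4a1 lay at 5.54, 5.87 and 6.05 in Nod1 -/- and at 6.16, 6.33 and 6.34 in Nod1 +/-. Col4a2 lay at 4.31, 4.58 and 4.83 in Nod1 -/- and at 4.95, 5.07 and 5.21 in Nod1 +/-. For both genes the genotypes did not overlap, yet neither passed. The differences were -0.46 (95% interval -0.83 to -0.08; adjusted p = 0.0898) and -0.50 (-0.89 to -0.11; adjusted p = 0.0774). Col4a2 passed in 4 of 20 alternatives, which were median scaling (adjusted p = 0.0473), an intensity trend with a robust prior (0.0407), the replicate block (0.0423) and leaving out Nod1 -/- replicate 3 (0.0479). Col4a1 passed with the intensity trend alone (0.0446). Over the 20 alternatives the difference ran from -0.64 to -0.24 for Col4a2 and from -0.57 to -0.23 for Col4a1. The smallest difference of each gene came when arrays were compared only within the same row of the slide. Without Nod1 -/- replicate 1 the differences were -0.37 for Col4a2 and -0.31 for Col4a1. Col4a1 minus Col4a2 lay between 1.22 and 1.30 in Nod1 -/- and between 1.13 and 1.26 in Nod1 +/-. The part of their shared place of transcription in this ratio was not tested. That place is shown because the starts of the 2 genes lie close together. In the RefSeq annotation (GRCm38.p6) their starts are 21 bases apart, and capitals mark those starts.
Col4a2 and Col4a1, chr8:11312801-11312830, plus strand: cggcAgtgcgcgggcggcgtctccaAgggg
The first capital is the start of Col4a2, on the plus strand, and the second the start of Col4a1, on the minus strand. The stretch shown holds 1 match to GGGCGG, counted on both strands. GGGCGG was found in the 250 bases before the start in 32.7% of 32851 promoters and in 57.9% of the 38 promoter windows of 35 collagen genes. A form of the NF-kB motif, GGGA and TTCC with any 2 bases between them, was in 1.21% of all promoters and in 0 of the 38 collagen windows, and the search also covered TATAAA and CCAAT. At so low a share over all promoters, 0 of 38 windows does not set collagens apart. The promoters searched include those of Col15a1, Col6a4, Col9a1 and Col8a2, but Col22a1 and Col14a1 had none to search.

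The others of this class did not pass either. Col18a1, whose cleaved end is endostatin, had a difference of -0.43 (adjusted p = 0.138), with a second probe at -0.55. Col4a4, known from the kidney filter, had a difference of 0.58 (adjusted p = 0.0944), Col4a5 of 0.29 and Col4a6 of 0.06. Col4a5 and Col4a6, neighbours on the X chromosome, had overlapping genotypes.

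**Figure D2:**
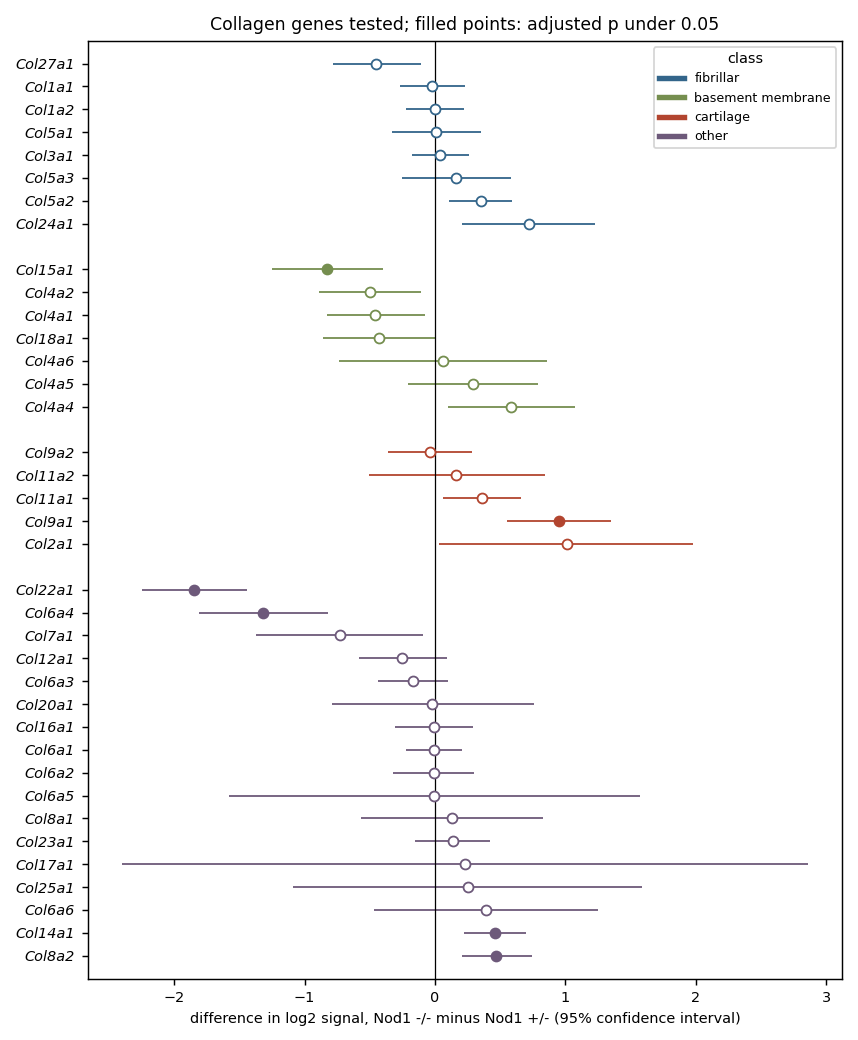
Difference in log2 signal (Nod1 -/- minus Nod1 +/-) of the 37 collagen genes tested, by class, with 95% confidence intervals from limma. Filled points passed an adjusted p of 0.05. None of the 8 fibrillar genes passed, and Col22a1 lies at -1.85 while Col9a1 lies at 0.95.

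None of the 8 fibrillar collagens passed, where 18.7% of all genes did. At an unadjusted p under 0.05 in limma there were 3 of the 8, beside 7642 of all 21478 genes. The median difference of all 8 fibrillar genes was 0.02. Col1a2, a chain of type I collagen, lay at 8.98, 8.95 and 8.99 in Nod1 -/- and 9.01, 8.89 and 9.01 in Nod1 +/-, a difference of 0.00 (95% interval -0.22 to 0.22). Col1a1, its partner chain, differed by -0.02 (-0.27 to 0.23). Col3a1, of the fine fibres of distensible tissue, lay at 7.93, 7.94 and 8.0 in Nod1 -/- and 7.92, 7.86 and 7.98 in Nod1 +/-, a difference of 0.04 (-0.18 to 0.26). The genotypes overlapped for all 3 of these genes. Of the chains that start fibrils, Col5a1 differed by 0.01 and Col5a2 by 0.35. Col5a2 lay at 3.07, 3.28 and 3.09 in Nod1 -/- and 2.77, 2.82 and 2.81 in Nod1 +/-, and its adjusted p was 0.0571. Col24a1 (0.72; adjusted p = 0.0616) and Col27a1 (-0.45; adjusted p = 0.0713), fibrillar types known mainly from skeleton, also had genotypes that did not overlap. Col5a3 differed by 0.16 and overlapped. Some of these passed in other settings, Col5a2 in 6 of 20 alternatives (adjusted p = 0.0407 with quantile scaling and 0.0278 with normexp), Col24a1 in 5 (0.0366 with normexp and 0.0219 without Nod1 -/- replicate 1) and Col27a1 in 2 (0.0481 with normexp).

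Col9a1 was the one cartilage collagen of 5 tested that passed (20%, beside 18.7% of all genes). It is a chain of type IX collagen, which sits on the surface of cartilage fibrils. Its level was -1.32, -1.59 and -1.45 in Nod1 -/- and -2.56, -2.56 and -2.08 in Nod1 +/-, so every Nod1 -/- array was higher. The difference was 0.95 (SE 0.16, 95% interval 0.55 to 1.35; adjusted p = 0.0147), a 1.93-fold higher signal. The call was lost without Nod1 -/- replicate 1 (0.88; adjusted p = 0.0542), and with normexp background correction the difference was 0.59. Its other probe was not well above background on any array. Its partner chain Col9a2 lay at 0.02, -0.25 and 0.08 in Nod1 -/- and -0.17, 0.05 and 0.09 in Nod1 +/-, a difference of -0.04 (adjusted p = 0.854). Col11a1, of the core of cartilage fibrils, lay at -0.97, -0.62 and -0.88 in Nod1 -/- and -1.27, -1.15 and -1.12 in Nod1 +/-. Its difference was 0.36 (adjusted p = 0.0938). Col2a1, the main cartilage collagen, differed by 1.01 (95% interval 0.03 to 1.98; adjusted p = 0.133). It stood well above background on all 3 Nod1 -/- arrays and on 1 Nod1 +/- array. Col11a2 differed by 0.16.

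Markers of cartilage moved in the same direction. Their mean level was -0.30, -0.39 and -0.19 in Nod1 -/- and -1.41, -1.01 and -1.02 in Nod1 +/-. Of 7 tested, 4 were higher in Nod1 -/- (Hapln1, Chad, Epyc and Sox9), or 57.1%, beside 11.0% of all genes. The median difference of the 7 was 0.71, while Acan, the main cartilage proteoglycan, differed by -0.06. Matn1, Matn3 and Ucma were not well above background on any array. The part of these transcripts in the Col9a1 result was not tested.

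In the group of other collagens, 4 of 17 changed (23.5%, beside 18.7% of all genes), and the median difference was -0.01. Besides Col22a1 and Col6a4 these were Col14a1 and Col8a2. Col14a1 encodes a collagen that coats fibrils. Its level was 5.91, 5.89 and 5.97 in Nod1 -/- and 5.36, 5.45 and 5.58 in Nod1 +/-, a difference of 0.46 (SE 0.10; adjusted p = 0.0282). The helix probe shown above gave 0.34 (adjusted p = 0.114 over all probes), so both probes were higher and 1 passed. Col8a2 encodes a short collagen that forms hexagonal nets, known from the cornea. It lay at 1.23, 1.35 and 1.5 in Nod1 -/- and 0.83, 0.87 and 0.96 in Nod1 +/-, a difference of 0.47 (SE 0.11; adjusted p = 0.0332). Its second probe, well above background on 4 arrays, gave 0.56 (SE 0.37). For both genes the arrays of the used probe did not overlap between genotypes. Col14a1 lost its call in 12 and Col8a2 in 11 of 20 alternatives, including median scaling (0.35, adjusted p = 0.125, and 0.37, adjusted p = 0.115). Leaving out any 1 array other than Nod1 +/- replicate 3 ended both calls, with adjusted p between 0.0665 and 0.093 for Col14a1 and between 0.0596 and 0.103 for Col8a2. Fibroblast markers averaged 4.67, 4.51 and 4.41 in Nod1 -/- and 4.12, 4.28 and 4.2 in Nod1 +/-. Of 7 tested, 3 were higher in Nod1 -/- (42.9%, beside 11.0% of all genes). Without passing, Pi16 (0.39) and Dpt (0.31) were higher, and Tcf21 (-0.25) and Pdgfra (-0.16) were lower. The part of these markers in the Col14a1 result was not tested.

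The 13 that did not pass in this group spanned -0.73 to 0.39. Col7a1, of the anchoring fibrils under epithelium, differed by -0.73 (adjusted p = 0.107) with no overlap, and Col12a1, another coat of fibrils, by -0.25. Col16a1 differed by -0.01, Col20a1 by -0.02, Col8a1 by 0.13, Col23a1 by 0.14 and Col25a1 by 0.25. Col17a1, a membrane collagen of epithelial attachment plaques, was the most variable of the 37. It lay at -4.10, -3.85 and -4.02 in Nod1 -/- and -4.66, -6.29 and -1.71 in Nod1 +/-, and its interval ran from -2.40 to 2.86. It was well above background on 2 Nod1 -/- arrays and 1 Nod1 +/- array.

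The precision varied widely among the collagens. The pooled SD within genotypes had a median of 0.22 over the 37 genes, beside 0.18 over all genes, and ran from 0.05 for Col6a1 to 1.64 for Col17a1. For 25 collagens the whole 95% interval lay within a difference of 1 in either direction, and for 12 it did not. All but 5 of the 37 were well above background on every array. The number of arrays limits these intervals.

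**Figure D3:**
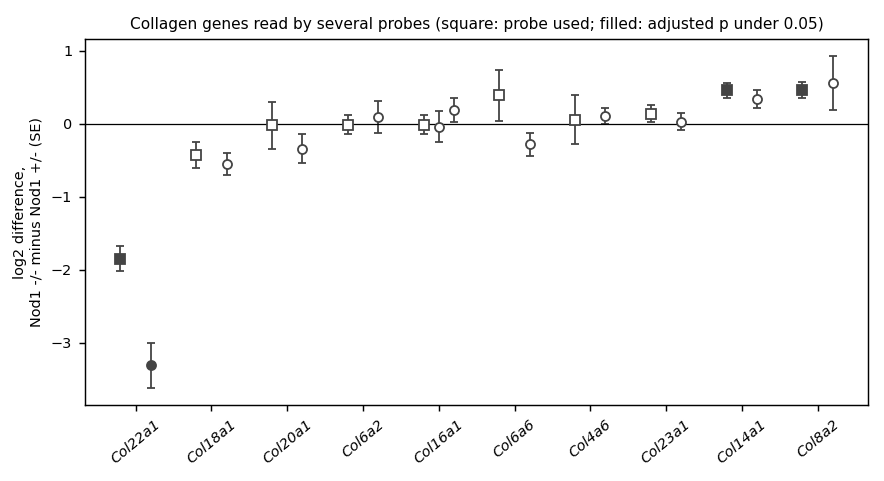
Difference in log2 signal (Nod1 -/- minus Nod1 +/-, with SE) for each kept probe of the 10 collagens with several kept probes. Squares are the probes used for the gene, circles the others, and filled symbols passed an adjusted p of 0.05 over all probes. Both Col22a1 probes lie well below 0, at -1.85 and -3.31.

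For 10 collagens several probes passed the filter, and for 7 of them all probes had the same direction. Col22a1 was the one collagen with more than 1 probe past the threshold. The probes disagreed in sign for Col16a1, Col6a2 and Col6a6, all at differences that did not pass. The probes of Col6a6 gave 0.39 and -0.28.

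Chains of the same collagen type were compared within each array, since a ratio of 2 probes on an array does not depend on its scaling. Among 9 pairs of chains, chosen after the data were seen, the genotypes did not overlap for 2, where 42.4% of all single genes did not overlap. Col9a1 minus Col9a2 was -1.33, -1.34 and -1.53 in Nod1 -/- and -2.39, -2.61 and -2.18 in Nod1 +/-. This difference of 0.99 has an exact two-sided permutation p of 0.1, the smallest that 3 against 3 arrays allow (0.45 after Benjamini-Hochberg adjustment over 9 pairs). Col9a2 itself differed by -0.04, so this ratio largely repeats the Col9a1 difference. Col5a1 minus Col5a2 was 2.68, 2.48 and 2.75 in Nod1 -/- and 2.89, 2.80 and 3.25 in Nod1 +/-, with the same exact p of 0.1. The chains of types I and IV kept ratios that overlapped between genotypes.

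**Figure D4:**
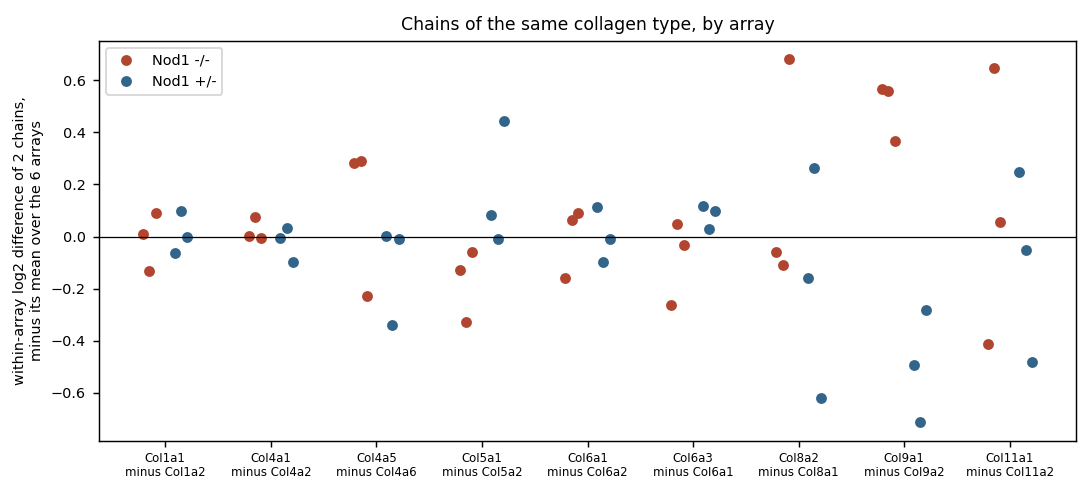
Within-array log2 difference between chains of the same collagen type, minus its mean over the 6 arrays, for 9 pairs. Points are arrays, with Nod1 -/- left and Nod1 +/- right of each position. The Col9a1 and Col9a2 pair separates the genotypes by 0.99, and the Col4a1 and Col4a2 pair stays close to 0.

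Genes that build, bind or break down collagen were counted from lists made with earlier results of these data known. Their counts are read against the 18.7% of all genes that changed, 11.0% higher and 7.66% lower in Nod1 -/-. Of 18 genes of procollagen folding and modification, 11.1% changed, below the 18.7% of all genes, with a median of 0.14. None was lower, and the 2 that changed were higher in Nod1 -/-, a share near the 11.0% of all genes. They were P4ha3, a subunit of prolyl hydroxylase (0.59; adjusted p = 0.0224), and Sec23a, a coat protein of the vesicles that export procollagen (0.70; adjusted p = 0.0263). Without Nod1 -/- replicate 2 neither passed (adjusted p = 0.0829 for P4ha3 and 0.0918 for Sec23a), and they also lost their calls without Nod1 -/- replicate 1 (0.0781 and 0.086), without Nod1 +/- replicate 3 (0.051 and 0.0567), and without Nod1 +/- replicate 1 for P4ha3 (0.0762) or 2 for Sec23a (0.0731). Median scaling (0.118 for P4ha3 and 0.119 for Sec23a), Xist as a covariate (0.0628 and 0.0655) and no filter on dim probes (0.076 and 0.0792) ended both calls too. Serpinh1, the collagen chaperone, differed by 0.15 (adjusted p = 0.328). Of 11 genes of propeptide cleavage and crosslinking, 1 was higher and 1 lower (18.2% changed), with a median of 0.07. Loxl4, a lysyl oxidase that crosslinks collagen, lay at -2.51, -2.27 and -1.93 in Nod1 -/- and -0.53, -0.53 and 0.15 in Nod1 +/- (-1.93; adjusted p = 0.00565). Pcolce2, an enhancer of propeptide cleavage, was higher (0.82; adjusted p = 0.016), but not without Nod1 -/- replicate 2 (adjusted p = 0.0626), Nod1 +/- replicate 1 (0.0556), Nod1 +/- replicate 2 (0.0521) or the filter on dim probes (0.0539).

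Of 12 genes on the breakdown list, which also holds inhibitors of breakdown, 4 were lower in Nod1 -/- (33.3%). None was higher past the threshold, and the list's median was -0.01. Of those that did not pass, Timp2 (0.30), Timp3 (0.26), Timp4 (0.42), Ctsk (0.49), Mmp2 (0.12) and Mrc2 (0.06) were higher. Mmp19 (-0.32) and Mmp14 (-0.09) were lower. Mmp9, 1 of the 4 changed genes, passed the filter on dim probes through the Nod1 +/- arrays alone, so its place in the count rests on that choice. Timp1, an inhibitor of matrix metalloproteinases, lay at 2.91, 2.97 and 2.75 in Nod1 -/- and 4.82, 4.91 and 4.68 in Nod1 +/- (-1.92; adjusted p = 0.000732). Mmp8, the neutrophil collagenase, lay at -3.01, -3.34 and -3.20 in Nod1 -/- and -0.32, 0.56 and -0.33 in Nod1 +/- (-3.16; adjusted p = 0.00172). Both separated the genotypes widely. Mmp9, a gelatinase, was not clearly above background in Nod1 -/- and measured at least 7-fold lower there. With normexp background correction the difference was -1.41 for Mmp9 and -2.05 for Mmp8. Mmp3, another metalloproteinase, chosen once its values were known, fell by 1.32 (adjusted p = 0.00463), or by 0.78 with normexp. Neutrophil markers averaged -0.28, 0.30 and 0.13 in Nod1 -/- and 2.67, 2.59 and 1.98 in Nod1 +/-. Of 7 tested, 5 were lower in Nod1 -/- (71.4%, beside 7.66% of all genes). The part of these markers in the Mmp8 and Mmp9 results was not tested.

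Of 9 collagen receptors 2 were lower in Nod1 -/- (22.2%), with a median of -0.07. Itga2, the collagen-binding chain of an integrin, lay at -3.99, -3.98 and -4.04 in Nod1 -/- and -1.29, -1.35 and -1.38 in Nod1 +/- (-2.66; adjusted p = 0.000243). With normexp it differed by -1.42. Itga1, the chain of a related receptor, fell by 0.65 (adjusted p = 0.022) and lost the call without replicate 1 or 2 of either genotype (0.0522 and 0.0649 for Nod1 -/-, 0.0631 and 0.0716 for Nod1 +/-) or without the filter on dim probes (0.0719). Itgb1, the shared partner chain, differed by -0.07. Of 7 small proteoglycans that bind collagen fibrils 4 were higher (57.1%) and none lower, with a median of 0.95 beside 0.10 over all genes. Lum (0.95; adjusted p = 0.00677), Ogn (0.98; adjusted p = 0.00694) and Aspn (0.98; adjusted p = 0.0112) passed, as did Dcn (0.54; adjusted p = 0.0115), which was picked with its values known. Without Nod1 -/- replicate 2 the calls of Aspn (0.0524) and Dcn (0.0506) were lost, and that of Dcn also without Nod1 -/- replicate 1 (0.0511), with median scaling (0.0899) and without the filter on dim probes (0.053). Lum and Dcn are also among the fibroblast markers given above. Of the 15 basement membrane partners reported here 2 were higher (13.3%) and none lower past the threshold, with a median of -0.21. Lower without passing were Lama5 (-0.85), Lama1 (-0.73), Agrn (-0.67), Hspg2 (-0.62) and Lamb3 (-0.46). So were Lamc1 (-0.33), Lama4 (-0.27), Lamb2 (-0.21), Lamb1 (-0.10) and Sparc (-0.01). Nid1 (0.17), Nid2 (0.17) and Lamc3 (0.03) were higher without passing. Lama3, a laminin chain of epithelium, was higher in Nod1 -/- (1.15; adjusted p = 0.00576), but lost the call with the mean of its probes (adjusted p = 0.27). Lama2, a laminin of muscle and nerve, was higher (0.60; adjusted p = 0.0117), but not without Nod1 -/- replicate 2 (adjusted p = 0.0538), with median scaling (0.0686) or without the filter on dim probes (0.0504).

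**Figure D5:**
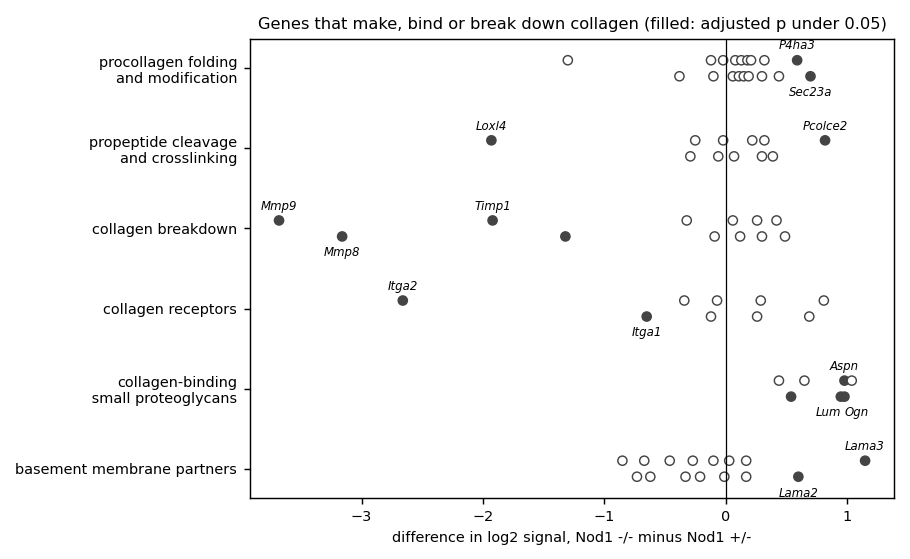
Difference in log2 signal (Nod1 -/- minus Nod1 +/-) of the tested genes reported here from 6 lists around collagen. Filled points passed an adjusted p of 0.05, and genes named by the rule are labelled. Mmp9 is drawn at its measured -3.68, although it was not well above background in Nod1 -/-. All 4 changed small proteoglycans lie right of 0. All 4 changed genes of the breakdown list, the inhibitor Timp1 among them, lie left of it, and unchanged genes of that list lie on both sides.

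The median deviation of the 37 genes from their mean within the same genotype was -0.03, -0.02 and 0.10 on the Nod1 -/- arrays. On the Nod1 +/- arrays it was -0.10, -0.02 and 0.12. Taken from each genotype's own mean, these values show differences among its arrays and cannot compare the genotypes. Probes well above background made up 53.7% to 58.4% in Nod1 -/- and 48.6% to 54.7% in Nod1 +/-. Nod1 itself did not pass (-0.13, 95% interval -0.59 to 0.32), and its probe may lie outside the deleted part, so it does not check the labels. Smooth muscle markers averaged between 5.25 and 5.65 in Nod1 -/- and between 5.33 and 5.55 in Nod1 +/-, and 0 of 6 passed limma's test (0 also at an unadjusted p under 0.05). All 6 endothelial markers were also detected, and 2 were higher in Nod1 -/- (33.3%, beside 11.0% of all genes). Without passing, Pecam1 (0.26) and Vwf (0.15) were higher, and Cdh5 (-0.30) and Kdr (-0.02) were lower.

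All arrays lay on 1 slide, with Nod1 -/- replicates 1 and 2 in row 1 and the other 4 arrays in row 2. Within row 2, where Nod1 -/- replicate 3 alone meets the 3 Nod1 +/- arrays, Col22a1 differed by -2.0 (adjusted p = 0.0206 with the row as a block) and Col6a4 by -1.55 (0.0488). Col9a1 differed by 0.95 there (0.109), Col15a1 by -0.71 (0.19), Col8a2 by 0.61 (0.0778) and Col14a1 by 0.50 (0.124). For all 6, Nod1 -/- replicate 3 lay beyond all 3 Nod1 +/- arrays, so these directions could not reverse and add no support. Of the genes named around collagen, Loxl4, Pcolce2, Itga1, Lum, Ogn, Aspn, Dcn, Lama2, P4ha3 and Sec23a lost their calls in that fit. The differences there were 0.96 for Pcolce2, 0.66 for Lama2 and 0.53 for Dcn, near or above those over all arrays, and -1.62 for Loxl4, -0.50 for Itga1, 0.79 for Lum, 0.75 for Ogn, 0.69 for Aspn, 0.44 for P4ha3 and 0.47 for Sec23a. By contrast, Timp1, Mmp3, Mmp8, Mmp9, Itga2 and Lama3 kept their calls.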

How the data were processed

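Aortic RNA of 6 samples was read on 1-colour Agilent arrays. Spot values are deposited as linear intensity with background subtracted. Per the file headers this was done by Feature Extraction 10.7.1.1, whereas the version per the submitters' processing notes was 9.5.1.1. The authors' value table of the whole series, also intensity, has columns with the same sorted values, by a step not given in the sources used here, and served as an alternative.

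Spots with outlier flags were left out, the log2 of the processed signal was averaged over the spots of a probe, and the 75th percentile of all 55681 non-control probes on that array was taken off. Of these, 134 probes had no usable spot on some array, and no spot was saturated. The filter left 30166 probes. The kept probe with the highest mean stood for its gene, which gave 21478 genes. Genotypes were compared with limma 3.58.1 (lmFit, eBayes) in R 4.3.3. All 43 collagen names match RefSeq symbols; promoters are RefSeq's (GRCm38.p6). "At least N-fold" compares the mean of the brighter genotype with the higher, per array, of the dim probe's signal and the lowest signal of probes well above background.

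The collagens and all lists were chosen with earlier results of these data known. Values are given per array for changed collagens and, in each class, for the 2 others of highest mean signal; from each list, the 3 changed genes of smallest p are named. Other genes named with values were chosen after these were seen. Some results around basement membranes and 1 probe's sequence are not reported here. Alternatives changed the background correction, scaling, filter, probe rule, prior, blocks, covariate, source of values and arrays. The fit was tested on simulated data. Plots used matplotlib 3.10.9, with pandas 2.3.3 and numpy 2.4.6 in Python 3.11.15, with jsonlite 2.0.0 and data.table (version 1.17.8) in R.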

Additional observations from a re-analysis of the deposited data

How the results depend on the processing

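Over 20 alternatives only the collagens and the genes named around them were followed singly. None of these that passed changed sign, while genes near 0 such as Col1a2, Col3a1, Col6a1 and Col9a2 did so without passing. Where genotypes do not overlap, leaving out arrays cannot change the sign. Col22a1 passed in all of them and Col6a4 in the 19 where it was tested. The count of changed collagens, 6 (3 higher and 3 lower in Nod1 -/-), was 10 (5 and 5) with normexp background correction, 11 (5 and 6) with an intensity trend and robust prior, 3 (1 higher) without a filter on dim probes, 3 (1 higher) with Xist signal as a covariate, 3 (1 higher, Col6a6) with slide row as block, and 2 (0 higher) without both first replicates. It was 5 with 1 higher under median scaling, and 7 with 5 higher among probes well above background on all arrays. Leaving out 1 array gave 3 to 6 changed collagens, of which 1 to 3 were higher, with 3 changed without Nod1 -/- replicate 1 or 2 and 1 higher when any 1 array other than Nod1 +/- replicate 3 was left out. The count over all genes, 4012, was 2524 under median scaling, 1636 without a filter, 1033 with the slide row, 2281 with Xist, 641 without both first replicates and 1459 to 3387 without 1 array. The lowest, 1459, came without Nod1 -/- replicate 2, and 1856 without Nod1 -/- replicate 1, 2142 without Nod1 +/- replicate 1 and 2084 without Nod1 +/- replicate 2. The causes were not tested. Taking the percentile over spots, chosen after seeing the data, gave 7.

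Samples of the same replicate number deviated together with correlations of 0.08, 0.28 and 0.11, so the numbers were not taken as pairs. The replicate block gave 10 changed collagens (5 higher and 5 lower) and 4040 changed genes. Signal over background limits the dim genes: normexp brought Col6a4 to -0.45, Col15a1 to -0.44, Col9a1 to 0.59, Mmp9 to -1.41, Itga2 to -1.42, Mmp8 to -2.05 and Mmp3 to -0.78.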
